A study of Bos taurus with 9 samples.

Results

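Toll-like receptor (TLR), NF-kB and STAT3 signaling was followed through 10 genes, *TLR2*, *TLR4*, *CD14*, *MYD88*, *NFKB1*, *NFKBIA*, *IL1B*, *MAPK14*, *STAT3* and *SOCS3*, which were taken by symbol from a table of 28786 genes counted in bovine liver. All 10 were found, and all 10 had enough counts to be tested in each comparison. The liver biopsies came from 9 lactating Holstein cows, drawn at random by the authors from a larger trial, with 3 cows and 3 libraries in each group. Cows of the thermoneutrality group (TN) were kept cool and ate freely. Cows of the Heat stress group (HS) were kept in hot air, hotter by day than by night. Cows of the pair-fed group (PF) were kept cool like the TN cows but received only as much feed as the HS cows ate, so that HS against PF compares heat at a matched intake and PF against TN compares feed intake at a matched temperature. The labels give no breed line, age or genotype that separates the groups, and all cows were sampled from the same organ. By the paper, average days in milk were lowest in TN, higher in HS and highest in PF cows. These comparisons cannot tell that difference apart from heat or feed intake.

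TLRs are receptors that bind microbial products, and *TLR4* recognizes bacterial endotoxin with the help of the surface protein CD14 and the plasma protein LBP. The adaptor MYD88 passes the signal to kinases that release NF-kB from its inhibitor and that activate p38 MAPK, and macrophages then make cytokines such as interleukin-1 beta and interleukin-6. In hepatocytes these cytokines act through NF-kB and STAT3, which switch on the acute phase genes, and SOCS3 is induced by STAT3 and shuts its pathway off again. In the liver, Kupffer cells and other macrophages carry much of the receptor side of this pathway and hepatocytes much of its acute phase side.

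Levels are counts per 1000000 counts of a library (CPM) after TMM normalization, and a value with an error is the mean ± SD of n = 3 cows. Differences between groups are log2 fold changes (log2FC) from edgeR's quasi-likelihood F test, with the false discovery rate (FDR) taken over every gene that could be tested in that pair of groups. A gene counted as differentially expressed (DEG) when it changed more than 1.5-fold at an FDR below 0.1. The study set these limits for DESeq2, another test of counts, whose calls are given beside those of edgeR. The libraries held between 16874444 and 22557047 counts, and a member had between 70 and 5861 counts in a library. Hepatocyte markers were detected in each library, 8 of 8. TN replicate 1 stood apart, with a summed level of the 8 hepatocyte markers of 15585 CPM, where the other cows had between 55767 and 125155 CPM. The mitochondrial protein-coding genes took 13.6% to 22.2% of the counts in TN, 6.90% to 7.79% in PF and 3.84% to 5.68% in HS cows. *CD14*, *STAT3* and *MAPK14* were lowest in TN replicate 1. Their differences between HS and TN cows are therefore also given without that cow, and for *CD14* and *MAPK14* those between PF and TN cows.

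By edgeR 0 of the 10 genes were DEGs in any of the 3 comparisons, where the share among all genes tested was 0.0892% (HS vs. TN), 0.0276% (HS vs. PF) and 0% (PF vs. TN). At an unadjusted p under 0.05 there were 0 members in HS vs. TN, 1 in HS vs. PF, which was *IL1B*, and 2 in PF vs. TN, which were *CD14* and *TLR4*. Among all genes the share at this p was 9.36%, 5.32% and 6.88%. DESeq2 called 1 member in all, *CD14* between PF and TN cows, where it called 0.555% of all genes, and 0 members in the other pairs, where it called 1.75% (HS, TN) and 0.771% (HS, PF). When edgeR was run once on all 9 libraries to ask for any difference among the 3 groups, 0 members passed an FDR under 0.1, which 0.0464% of all genes passed. In that test 2 members had an unadjusted p under 0.05, *CD14* (FDR 0.546) and *IL1B* (FDR 0.589), where 7.86% of all genes did.

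**Figure D1:**
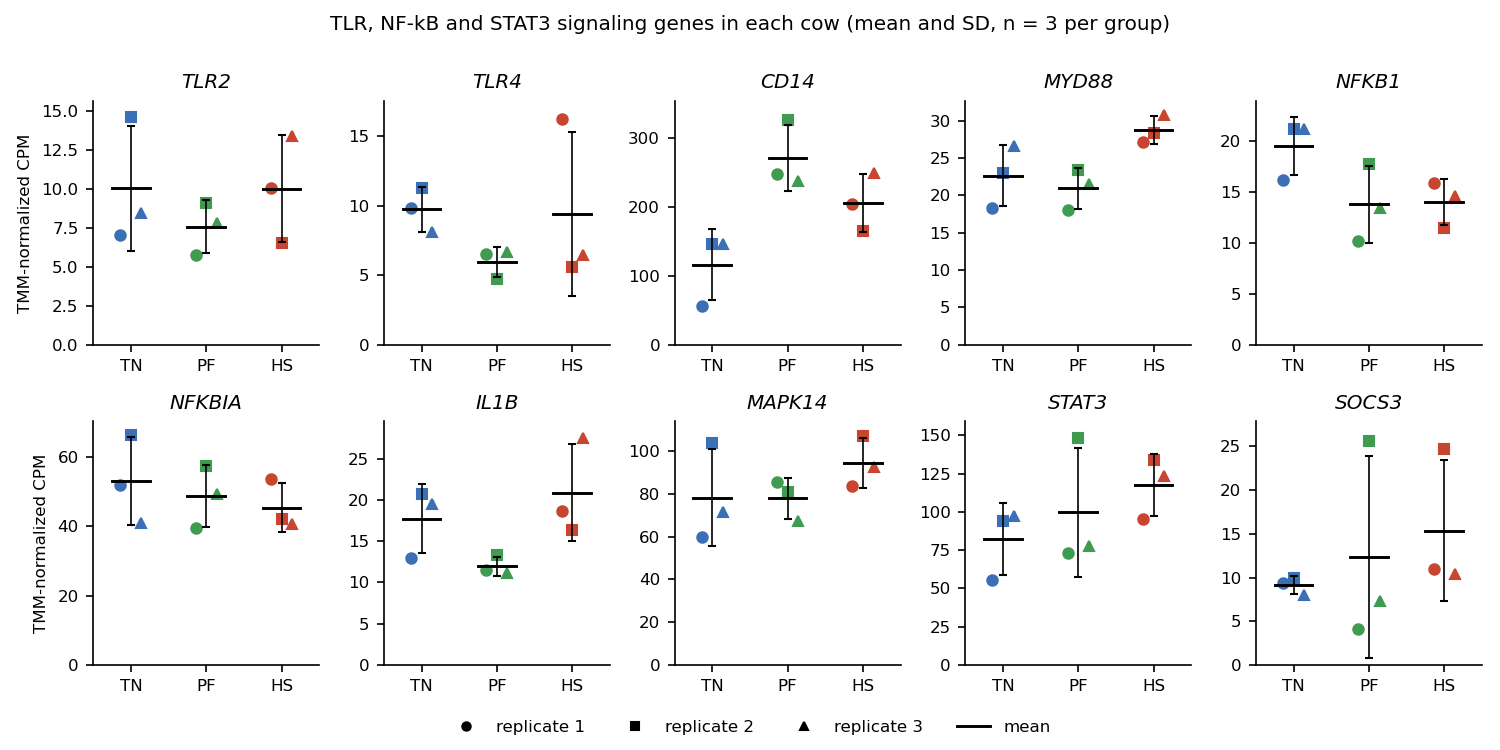
TMM-normalized CPM (vertical axis) of the 10 genes in each cow of the TN, PF and HS groups (horizontal axis), with 1 symbol per replicate, the mean as a thick line and the SD as a thin bar. *CD14* was above every TN cow in all 6 PF and HS cows, *IL1B* was lower in the PF cows than in every HS cow, and *SOCS3* was near 25 CPM in PF replicate 2 and HS replicate 2 alone.

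*CD14*, the co-receptor that hands endotoxin to *TLR4*, had the largest group difference of the 10 genes. Its levels were 56.3, 147 and 146 CPM in TN, 249, 327 and 239 CPM in PF and 204, 166 and 250.0 CPM in HS cows (replicates 1, 2 and 3). Every PF cow and every HS cow was above every TN cow, while PF and HS overlapped. The means were 271 ± 48.6 CPM (PF), 207 ± 42.3 CPM (HS) and 116 ± 52.1 CPM (TN).

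PF cows had 2.33-fold the *CD14* level of TN cows, with a 95% confidence interval from 1.29 to 4.22 (edgeR, log2FC 1.22, SE 0.39, FDR 0.697). DESeq2 called this difference at an FDR of 0.0964, just under the threshold, and the FDR over all alternatives reached 1.00. Without TN replicate 1 the log2FC was 0.90 (SE 0.27, FDR 1.00, edgeR), and the unadjusted p was under 0.05 whichever of the 6 cows was left out. For HS against TN cows the log2FC of *CD14* was 0.82 (SE 0.38, FDR 0.526, edgeR), and it was 0.50 without TN replicate 1. For HS against PF cows it was -0.40 (SE 0.27, FDR 1.00, edgeR), with an interval from -0.99 to 0.20. The comparisons of HS and of PF with TN share the TN cows.

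*TLR4*, the endotoxin receptor itself, had the opposite order between PF and TN cows. It had 9.84, 11.3 and 8.10 CPM in TN, 6.51, 4.75 and 6.67 CPM in PF and 16.2, 5.61 and 6.46 CPM in HS cows. Every PF cow was below every TN cow, and HS replicate 1 was the highest of all while the other 2 HS cows lay among the PF cows. The log2FC of PF against TN cows was -0.71 (SE 0.30, FDR 0.708, edgeR). For HS against PF cows it was 0.66 (SE 0.41, FDR 1.00, edgeR), but 0.00 without HS replicate 1, and for HS against TN cows it was -0.05 (SE 0.40), but -0.71 without HS replicate 1. The count of *CD14* per count of *TLR4* was 5.72 to 18.0 in TN, 35.8 to 69.0 in PF and 12.6 to 38.7 in HS cows. The PF and TN cows did not overlap in this ratio, which follows from their separation in each gene and is no further result.

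*TLR2*, a receptor for bacterial lipoproteins, had 7.02, 14.6 and 8.46 CPM in TN, 5.74, 9.10 and 7.79 CPM in PF and 10.04, 6.54 and 13.4 CPM in HS cows. The 3 groups overlapped one another, and single cows of a group differed by more than the group means. The log2FC was -0.01 (SE 0.35, 95% interval -0.81 to 0.78, edgeR) for HS against TN, 0.40 (SE 0.33) for HS against PF and -0.41 (SE 0.35) for PF against TN cows, with FDRs of 0.991, 1.00 and 0.767. *TLR2* overlaps *RNF175* (RefSeq, ARS-UCD2.0), and the strand setting of the counting is not given in the sources used here, so reads of the pair may not be told apart.

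*MYD88*, the adaptor below most TLRs and the interleukin-1 receptor, was highest in the HS cows. It had 18.3, 23.02 and 26.6 CPM in TN, 18.0, 23.4 and 21.5 CPM in PF and 27.1, 28.3 and 30.7 CPM in HS cows. Every HS cow was above every other cow, with HS replicate 1 at 27.1 CPM just over TN replicate 3 at 26.6 CPM. The means were 28.7 ± 1.84 CPM (HS), 22.6 ± 4.14 CPM (TN) and 21.0 ± 2.75 CPM (PF), and TN and PF overlapped. The log2FC was 0.33 (SE 0.21, FDR 0.612, edgeR) for HS against TN and 0.45 (SE 0.21, FDR 0.948) for HS against PF cows, and it lay between 0.21 and 0.54 in these comparisons with any 1 cow left out.

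**Figure D2:**
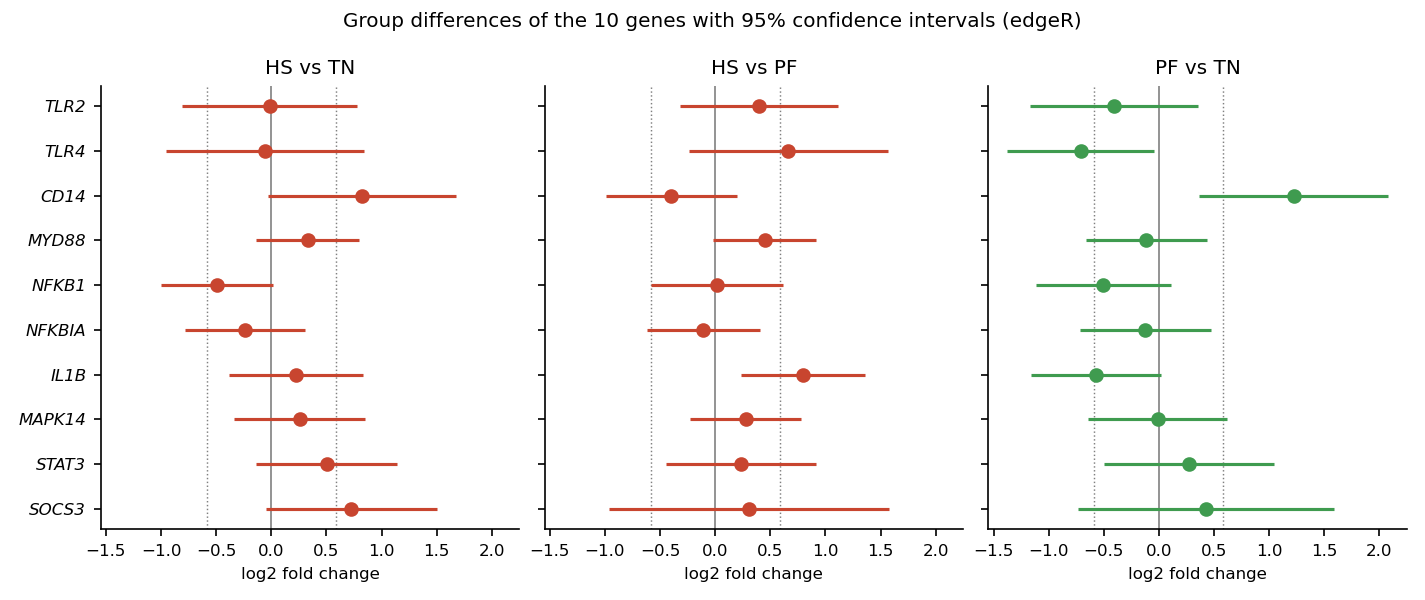
Log2FC (horizontal axis) of the 10 genes in the 3 comparisons, with points for the edgeR estimate, bars for the 95% confidence interval and dotted lines at a fold change of 1.5 in either direction. The interval left out 0 for *IL1B* in HS against PF (0.23 to 1.36) and for *CD14* (0.36 to 2.08) and *TLR4* (-1.37 to -0.04) in PF against TN cows.

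*NFKB1* encodes the p105 precursor of the NF-kB subunit p50, and *NFKBIA* the inhibitor that holds NF-kB in the cytoplasm and is itself an NF-kB target. *NFKB1* had 16.2, 21.2 and 21.2 CPM in TN, 10.2, 17.8 and 13.4 CPM in PF and 15.9, 11.5 and 14.7 CPM in HS cows. All 3 HS cows lay under the lowest TN cow, by a small margin between HS replicate 1 and TN replicate 1, and PF overlapped both. The log2FC of *NFKB1* was -0.49 (SE 0.23, FDR 0.523, edgeR) for HS against TN, -0.50 (SE 0.28, FDR 0.709) for PF against TN and 0.02 (SE 0.27, FDR 1.00) for HS against PF cows. *NFKB1* overlaps *LOC100335751* and *LOC112447046* in ARS-UCD2.0, which brings the same limit as for *TLR2*.

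*NFKBIA* had 52.0, 66.2 and 40.9 CPM in TN, 39.6, 57.5 and 49.3 CPM in PF and 53.7, 42.0 and 40.6 CPM in HS cows. The groups overlapped throughout. The log2FCs of *NFKBIA* were -0.24 (SE 0.24), -0.11 (SE 0.23) and -0.12 (SE 0.27) for HS against TN, HS against PF and PF against TN cows, with 95% intervals from -0.78 to 0.31, from -0.62 to 0.41 and from -0.72 to 0.47 (edgeR). The highest of the 9 cows had 1.67-fold the level of the lowest, the smallest range among the 10 genes.

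*IL1B*, which encodes the cytokine interleukin-1 beta, was furthest apart between HS and PF cows. It had 13.0, 20.7 and 19.5 CPM in TN, 11.5, 13.3 and 11.1 CPM in PF and 18.7, 16.4 and 27.6 CPM in HS cows. Every HS cow was above every PF cow, and TN lay across both, with TN replicate 1 inside the PF range. HS cows had 1.74-fold the level of PF cows, with a 95% interval from 1.18 to 2.57 (log2FC 0.80, SE 0.26, FDR 0.668, edgeR). The unadjusted p was under 0.05 with any of 5 of the 6 cows left out, but not without HS replicate 3, when the log2FC was 0.55. For PF against TN cows the log2FC was -0.57 (SE 0.27, FDR 0.708, edgeR), and for HS against TN cows it was 0.22 (SE 0.27, FDR 0.787).

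Markers of macrophages had, like *IL1B*, a higher level in HS than in PF cows. Of the 10 macrophage and Kupffer cell markers, all 10 had a higher mean in HS than in PF cows, 9 had an unadjusted p under 0.05 where 3.07% of all genes did in this direction, and for 8 of them every HS cow was above every PF cow, as for 5.95% of all genes. None of the 10 was a DEG by edgeR or by DESeq2, and the median log2FC was 0.87, against 0.01 over all genes tested. The number at an unadjusted p under 0.05 was 3 without PF replicate 3, 5 without PF replicate 1 and 5 without HS replicate 3. The summed level of the markers was 2296 to 3922 CPM in HS, 1369 to 2168 CPM in PF and 1582 to 3587 CPM in TN cows, and none of the 10 was at 0 in any library. The summed level of the 6 neutrophil markers in the table was 54.6 to 139.6 CPM in HS, 20.6 to 63.4 CPM in PF and 21.4 to 46.2 CPM in TN cows, with 4 of the 6 above 3 counts in TN replicate 1 and 6 of 6 elsewhere. The part of these cells in the *IL1B* result was not tested. In a biopsy, more cells of a type and more RNA per cell cannot be told apart.

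Per 1000 counts on the 10 macrophage markers of the same library, *IL1B* had 5.83, 7.12 and 7.03 counts in HS, 7.06, 6.13 and 8.11 counts in PF and 8.22, 5.78 and 10.1 counts in TN cows. On this scale, which was chosen after the values were seen, HS and PF cows overlapped, with a log2 difference of -0.088 and an SD within groups of 0.18 (exact two-sided permutation test, p = 0.6, where 0.1 is the smallest p that 3 cows against 3 allow). HS cows, which had the larger marker sums, were below PF cows on this scale in 10 of 10 members, from -0.088 for *IL1B* to -0.96 for *NFKBIA* and -1.26 for *CD14*, also in *TLR2* (-0.49), *TLR4* (-0.36), *MYD88* (-0.40), *MAPK14* (-0.58), *STAT3* (-0.56), *SOCS3* (-0.24) and *NFKB1* (-0.82), whose differences in CPM were above 0. All members of a library are divided by the same marker counts, so every member shifts alike and the 10 are not separate results. For *MYD88* the difference of HS minus TN was -0.11 on this scale, where it was above 0 in CPM. *TLR4* in PF against TN cows had a log2 difference of -0.31 on this scale (exact two-sided permutation test, p = 0.5). The marker counts are weighted to *C1QA*, *C1QB*, *C1QC* and *CD5L*, with means of 588, 641, 623 and 775 CPM in HS cows. *MARCO*, the next marker, had a mean of 203 CPM there.

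*CD14* had another order than the macrophage markers. PF cows had the lowest summed marker level of the groups by the median, 1626 CPM, and the highest *CD14*. Per 1000 counts on macrophage markers *CD14* had 153, 151 and 174 counts in PF, 63.7, 72.1 and 63.8 counts in HS and 35.6, 40.9 and 75.7 counts in TN cows. The PF cows were above every other cow on this scale, with log2 differences of 1.73 for PF minus TN and -1.26 for HS minus PF cows, both with the smallest exact two-sided permutation p possible here, 0.1. The summed level of the 8 hepatocyte markers was 78500 to 114002 CPM in PF, 55767 to 125155 CPM in HS and 15585 to 75028 CPM in TN cows, so that PF cows were above every TN cow in both. Taken singly, 1 of the 8 markers had every PF cow above every TN cow. This was *ALB* (albumin), the most abundant, with at least 49261 CPM in PF and at most 46673 CPM in TN cows. The part of hepatocyte RNA in the *CD14* result was not tested.

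**Figure D3:**
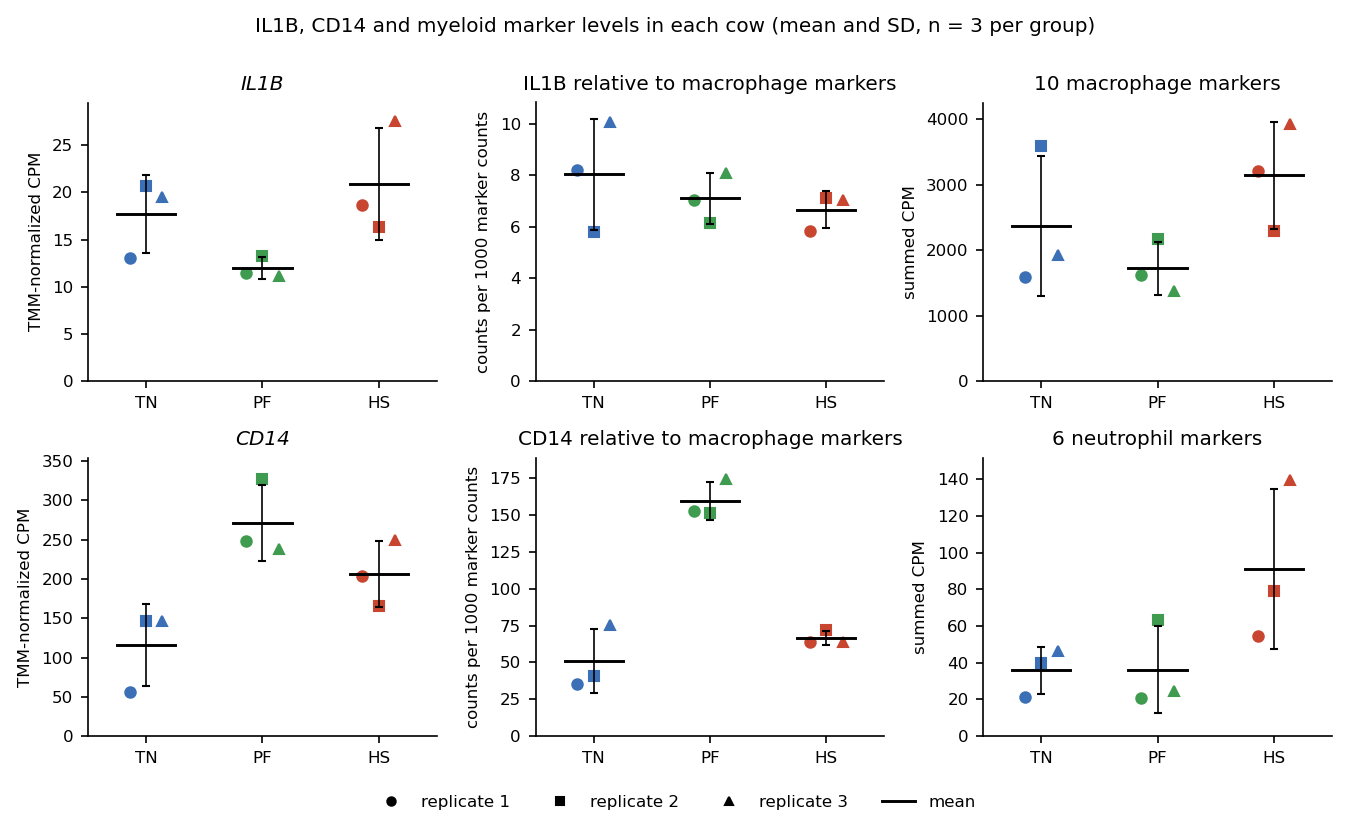
Levels in each cow of the TN, PF and HS groups (horizontal axis) of *IL1B* and *CD14* as CPM and as counts per 1000 counts on 10 macrophage markers, and the summed CPM of macrophage and of neutrophil markers, with the mean as a thick line and the SD as a thin bar. HS and PF cows were separate for *IL1B* in CPM but overlapped per marker count, while PF cows had 151 to 174 *CD14* counts per 1000 marker counts and every other cow at most 75.7.

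*MAPK14*, which encodes p38 alpha, the stress-activated kinase that also stabilizes cytokine messages, had 59.6, 104 and 71.6 CPM in TN, 85.5, 80.6 and 67.4 CPM in PF and 83.9, 107 and 92.6 CPM in HS cows. TN replicates 1 and 2 spanned nearly the whole range of the 9 cows, and the groups overlapped. The log2FC was 0.26 (SE 0.26, FDR 0.745, edgeR) for HS against TN, 0.28 (SE 0.23, FDR 1.00) for HS against PF and -0.01 (SE 0.29, FDR 0.993) for PF against TN cows. Without TN replicate 1 the first of these was 0.11 and the last was -0.17.

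*STAT3*, the transcription factor that interleukin-6 type cytokines activate in hepatocytes, had 55.4, 94.3 and 97.2 CPM in TN, 72.9, 148 and 77.8 CPM in PF and 95.1, 134 and 124 CPM in HS cows. PF replicate 2 was the highest cow and HS replicates 2 and 3 followed, while the other 2 PF cows were below 2 of the 3 TN cows. The means were 117 ± 20.1 CPM (HS), 99.7 ± 42.3 CPM (PF) and 82.3 ± 23.4 CPM (TN). The log2FC was 0.50 (SE 0.28, 95% interval -0.14 to 1.14, FDR 0.583, edgeR) for HS against TN, 0.23 (SE 0.31) for HS against PF and 0.27 (SE 0.35) for PF against TN cows. Without TN replicate 1 it was 0.29 for HS against TN cows, and without PF replicate 2 it was -0.13 for PF against TN cows.

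*SOCS3*, the STAT3 target that blocks the kinases above STAT3, varied most among cows. It had 9.39, 9.999 and 8.04 CPM in TN, 4.14, 25.6 and 7.33 CPM in PF and 11.0, 24.7 and 10.4 CPM in HS cows. PF replicate 2 and HS replicate 2 had more than 2 times the level of any other cow, and the highest cow had 6.18-fold the level of the lowest. Every HS cow was above every TN cow, with HS replicate 3 at 10.4 CPM and TN replicate 2 at 9.999 CPM. The log2FC of HS against TN cows was 0.73 (SE 0.35, FDR 0.531, edgeR), and it was 0.22 (SE 0.28) without HS replicate 2. For PF against TN cows it was 0.43 (SE 0.53, FDR 0.833) and -0.67 without PF replicate 2, and for HS against PF cows it was 0.31 (SE 0.58, FDR 1.00) and 1.41 without PF replicate 2 (FDR 0.671).

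The acute phase list of 15 genes was counted by cow. HS replicate 2 had the highest level of the 9 cows in 11 of the 15 genes and PF replicate 2 in the other 4, and each was the highest cow of its own group in 12 of 15. HS replicate 2 had 19368 CPM of *HP* (haptoglobin), 164 CPM of *SAA3* (serum amyloid A) and 385 CPM of *LBP* (the endotoxin-binding plasma protein), the highest of the 9 cows in each. PF replicate 2 had 1102 CPM of *HP* and 27.0 CPM of *SAA3*, below the 1721 and 69.2 CPM of HS replicate 1, a cow with 11.0 CPM of *SOCS3*. *HAMP* (hepcidin, the iron-regulating hormone) had 683 CPM in PF replicate 2 and 529, 527 and 418 CPM in the HS cows, so that it was not higher in the HS cow with the most *SOCS3*. *IL6*, a main activator of STAT3 in hepatocytes, had 0 counts in all 9 libraries, which allows up to 0.111 to 0.202 CPM in a library (3 counts, counting error only).

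**Figure D4:**
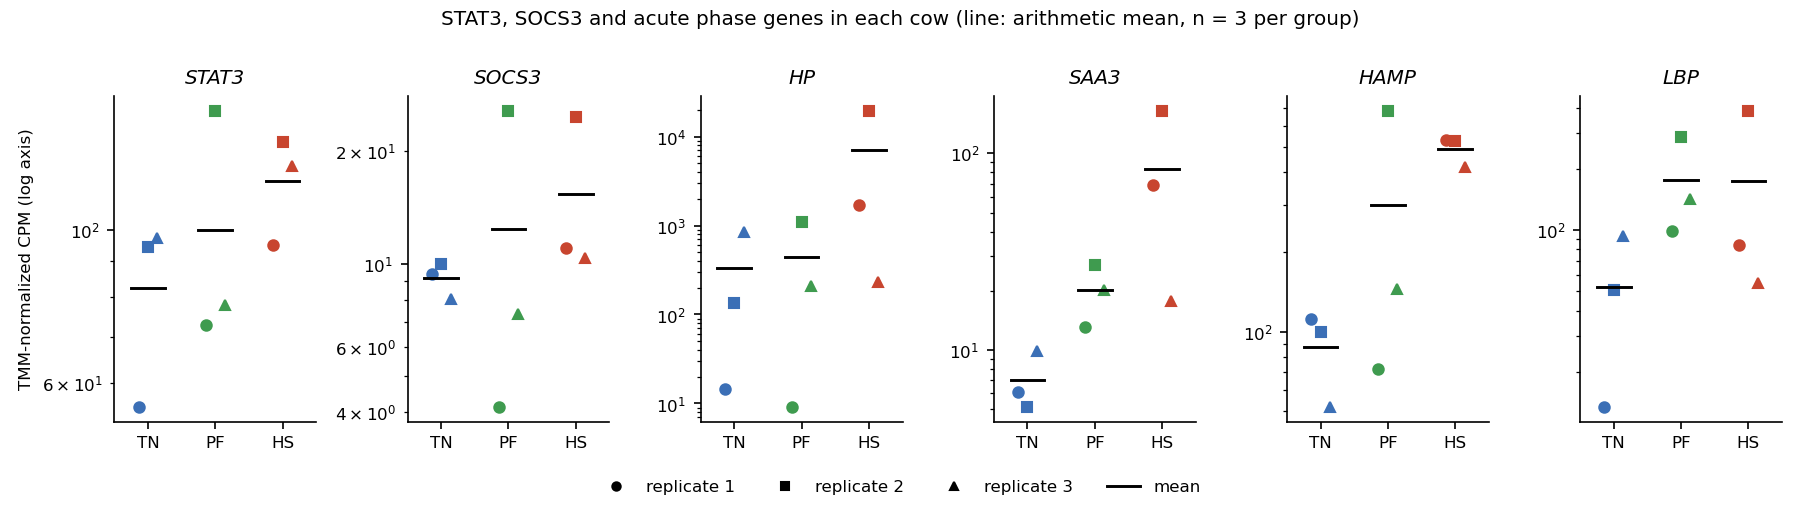
TMM-normalized CPM on a log axis (vertical) of *STAT3*, *SOCS3*, *HP*, *SAA3*, *HAMP* and *LBP* in each cow of the TN, PF and HS groups (horizontal axis), with 1 symbol per replicate and the arithmetic mean as a line. PF replicate 2 and HS replicate 2 (squares) had the 2 highest *SOCS3*, *STAT3* and *LBP* levels of the 9 cows.

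Read as a list, the 10 genes had a median log2FC of 0.24 for HS against TN, 0.29 for HS against PF and -0.12 for PF against TN cows, where the medians over all genes tested were -0.01, 0.01 and -0.01. A higher mean was found in HS than in TN cows for 6 of 10 (49.3% of all genes), in HS than in PF cows for 8 of 10 (50.9%) and in PF than in TN cows for 3 of 10 (48.8%). HS and TN cows were fully separated in 4 of 10 genes, *CD14*, *MYD88* and *SOCS3* above and *NFKB1* below, against 16.1% of all genes (8.37% above, 7.7% below). HS and PF cows were separated in 2 of 10, *IL1B* and *MYD88*, both above (10.5% of all genes, 5.95% above and 4.58% below), and PF and TN cows in 2 of 10, *CD14* above and *TLR4* below (13.2%, of which 6.81% above and 6.37% below). *IL1B*, *MAPK14*, *MYD88* and *STAT3* are shown by the study as inflammatory genes in these same cows, so their direction is not independent evidence. The study also shows *HAMP*, *HP* and *SAA3* in these cows, and the same limit holds for these acute phase genes.

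The wider pathway was counted over 8 lists that together name 112 genes, the 10 members among them, of which 111 are in the table. Between HS and TN cows 104 could be tested, 59 with a higher and 45 with a lower mean in HS cows. By edgeR 1 of the 104 was a DEG, where 0.0892% of all genes were. This was *HAMP*, which rose from 87.6 ± 31.5 to 491 ± 63.6 CPM (log2FC 2.47, SE 0.37, FDR 0.0919, edgeR) but was no longer a DEG by edgeR with any of 5 of the 6 cows left out. DESeq2 gave *HAMP* an FDR of 1.66e-11, and every HS cow was above every TN cow, as for 8.37% of all genes. At an unadjusted p under 0.05 there were 10 genes higher and 2 lower in HS cows, where 4.13% and 5.23% of all genes were. Between HS and PF cows 0 of 102 genes were DEGs, with 9 higher and 1 lower in HS cows at an unadjusted p under 0.05 (3.07% and 2.25% of all genes). Between PF and TN cows 0 of 103 were DEGs, with 6 higher and 3 lower in PF cows (2.99% and 3.89% of all genes). DESeq2 called 4 genes for HS and TN (*HAMP*, *ITIH4*, *SAA3* and *A2M*), where it called 1.75% of all genes. It called 1 for HS and PF (*IL1R2*), where it called 0.771% of all genes. For PF and TN it called 2 (*SAA3* and *CD14*), where it called 0.555% of all genes. Each of these genes was higher in the group named first.

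The acute phase list held the largest share of these genes. All 15 of its genes had a higher mean in HS than in TN cows, with a median log2FC of 1.01, and 6 of the 10 genes at an unadjusted p under 0.05 belong to it. Against PF cows 13 of the 15 had a higher mean in HS cows, with a median of 0.20, and in PF against TN cows 14 of 15 had, with a median of 0.71. Markers of hepatocytes were higher in the same comparisons, in 7 of 8 with a median log2FC of 0.75 for HS against TN and in 8 of 8 with a median of 0.64 for PF against TN cows, and their part in the acute phase result was not tested. Without TN replicate 1, which had the lowest hepatocyte markers, the acute phase median was 0.60 for HS against TN (14 of 15 higher, 5 at an unadjusted p under 0.05) and 0.34 for PF against TN cows (10 of 15 higher), and the hepatocyte medians were 0.33 and 0.23. Without HS replicate 2 the acute phase median for HS against TN cows was 0.60 (14 of 15 higher, 4 at an unadjusted p under 0.05), and 8 of 15 genes were higher in HS than in PF cows. Without PF replicate 2 the median for PF against TN cows was 0.31 (11 of 15 higher). *A2M*, which encodes the protease inhibitor alpha-2-macroglobulin, had 534 ± 274 CPM (HS), 108 ± 69.7 CPM (PF) and 84.6 ± 49.6 CPM (TN), and a log2FC = 2.31 (SE 0.49, FDR 0.287, edgeR) against PF cows. *SAA3* had 20.1 ± 6.92 CPM (PF) and 7.03 ± 2.48 CPM (TN) (log2FC 1.52, SE 0.35, FDR 0.523, edgeR). *LBP*, which belongs to the receptor list and is also an acute phase gene, had 175 ± 183 CPM (HS), 176 ± 98.1 CPM (PF) and 52.5 ± 40.1 CPM (TN), and the difference of HS from TN was 1.73 on the log2 scale (SE 0.79, FDR 0.524 by edgeR).

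In HS against TN cows the other lists centred nearer to 0 than the acute phase genes. The median log2FC was -0.01 for TLR receptors and co-receptors, 0.03 for adaptors and kinases, -0.06 for NF-kB subunits, kinases and inhibitors, 0.23 for the p38 MAPK and AP-1 branch, -0.40 for cytokines, 0.09 for cytokine receptors and -0.02 for JAK-STAT genes. Against PF cows the acute phase median of 0.20 was passed by 0.40 for the receptors, 0.40 for the p38 branch and 0.58 for the 7 cytokines that could be tested, while it was -0.08 for adaptors and kinases, 0.01 for the NF-kB list, -0.04 for cytokine receptors and -0.07 for JAK-STAT genes. In PF against TN cows 7 of 8 cytokines had a lower mean, with a median of -0.65.

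**Figure D5:**
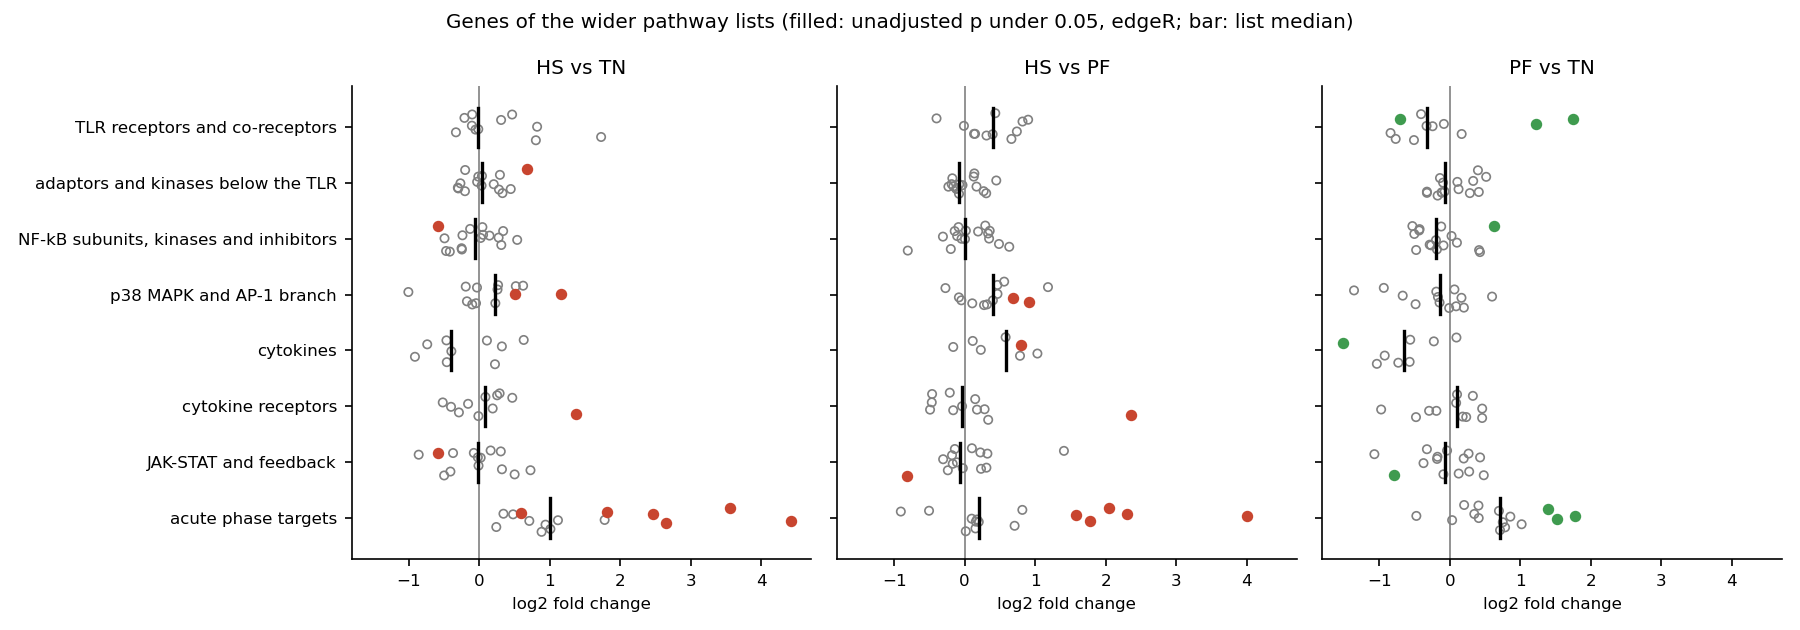
Log2FC (horizontal axis) of each tested gene of the 8 pathway lists (vertical axis) in the 3 comparisons, with filled points at an unadjusted p under 0.05 (edgeR), open points otherwise and a bar at the list median. The acute phase list lay to the right of 0 in HS against TN cows (15 of 15 genes), while the medians of the other lists ran from -0.40 to 0.23.

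Among receptors and adaptors, *IL1R2*, the decoy receptor that binds interleukin-1 without signaling, had 6.17, 9.999 and 5.18 CPM in TN, 2.31, 5.92 and 2.65 CPM in PF and 6.68, 14.3 and 35.2 CPM in HS cows. Every HS cow was above every PF cow, with a log2FC = 2.35 (SE 0.57, FDR 0.380, edgeR), and DESeq2 called it at an FDR of 0.00287. The summed level of the neutrophil markers in the same HS cows had the same order, 54.6, 79.3 and 139.6 CPM. The order was also the same in PF cows (20.6, 63.4 and 24.8 CPM) but not in TN cows (21.4, 39.9 and 46.2 CPM). The sums are weighted to *S100A12*, with a mean of 50.7 CPM in HS cows. *S100A9*, the next marker, had a mean of 16.9 CPM there. The part of these markers in the *IL1R2* result was not tested. *TOLLIP*, which restrains TLR signaling, had 120 ± 21.3 CPM (HS) and 74.7 ± 12.5 CPM (TN) (log2FC 0.67, SE 0.25, FDR 0.474, edgeR). *TAB2*, an adaptor of the kinase TAK1, had the smallest p of its list in PF against TN cows (log2FC 0.52, SE 0.28, FDR 0.709), and *TLR8*, a receptor for RNA in endosomes, that of its list in HS against PF cows (0.82, SE 0.39, FDR 0.949).

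Among NF-kB and MAPK genes, *IKBKG*, the regulatory subunit of the kinase that releases NF-kB, had 21.0 ± 0.537 CPM (HS) and 31.2 ± 5.28 CPM (TN), without overlap (log2FC -0.59, SE 0.21, FDR 0.465, edgeR). *CHUK*, a catalytic subunit of the same kinase, had 20.0 ± 3.24 CPM (PF) and 12.9 ± 2.97 CPM (TN) (0.63, SE 0.27, FDR 0.708), and *TNIP1*, an inhibitor of NF-kB, had a log2FC = 0.35 (SE 0.23, FDR 1.00) in HS against PF cows. *MAP2K6*, which activates p38, had 12.1, 25.2 and 12.3 CPM in HS and 5.10, 6.85 and 10.2 CPM in TN cows (1.15, SE 0.36, FDR 0.426). *MAPKAPK2*, a kinase below p38, had 76.6, 76.0 and 101 CPM in HS and 48.3, 54.9 and 53.2 CPM in PF cows (0.69, SE 0.22, FDR 0.668). In each of these p38 branch genes the named groups did not overlap.

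Among cytokine and STAT genes, *TNF*, which encodes tumor necrosis factor, had 0.355, 1.95 and 1.48 CPM in PF and 3.62, 4.63 and 2.62 CPM in TN cows, with between 6 and 81 counts in these libraries. The groups did not overlap, with a log2FC = -1.52 (SE 0.63, FDR 0.708, edgeR). *IL18* had 18.0 ± 2.67 CPM (HS) and 23.4 ± 1.99 CPM (TN) (-0.40, SE 0.21, FDR 0.561). *STAT5A*, a STAT below growth hormone and prolactin receptors, had 14.4 ± 2.80 CPM (TN), 8.34 ± 1.59 CPM (PF) and 9.74 ± 2.02 CPM (HS), with log2FC = -0.79 (SE 0.28, FDR 0.697) and -0.58 (SE 0.26, FDR 0.522) against TN cows. *SOCS2*, a feedback inhibitor of growth hormone signaling, had 46.2, 53.3 and 77.5 CPM in HS and 104, 101 and 106 CPM in PF cows (-0.82, SE 0.25, FDR 0.627), but 249 CPM in TN replicate 2 against 38.4 and 32.2 CPM in the other 2 TN cows.

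The genes whose log2 CPM followed a member most closely over the 9 cows, among 15072 other genes, were found by Pearson's r and are a description without a test. *IL1B* was followed by *NLRC4* (r = 0.969), an inflammasome sensor of myeloid cells. *CD14* was closest to *MRPS18B* (0.989) and *RPLP0* (0.980), which encode ribosomal proteins, and *MAPK14* to *SOD2* (0.935) and *SCPEP1* (0.922). The closest genes were *ERI3* (0.963) and *RPS19BP1* (0.962) for *STAT3*, *C15H11orf96* (0.955) and *USE1* (0.926) for *SOCS3*, and *PCOLCE* (0.976) and *RSPH14* (0.975) for *MYD88*. For *TLR2* they were *CMSS1* (0.961) and *LOXL1* (0.923), for *TLR4* *TMX3* (0.954) and *MYOF* (0.899), for *NFKB1* *SYCE1* (0.919) and *LOC618633* (0.912), and for *NFKBIA* *LOC513659* (0.938) and *CCL14* (0.936). The 9 points of each pair of genes share their libraries and their groups.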

How the data were processed

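Liver RNA of 9 cows, selected for poly(A), was sequenced in paired ends by the authors, who deposited 1 table of counts, the number of reads on each gene, unscaled. Per the labels and the paper, reads were cleaned with fastp 0.23.2, aligned to ARS-UCD1.2 with STAR 2.7.9a and counted with featureCounts 2.0.3. The annotation release, strand and multi-mapping settings are not given in the sources used here. All 9 columns were mapped to cows by their labels. For each comparison, a quasi-likelihood model was fitted in R 4.3.3 (edgeR 4.0.16) to the 6 libraries it involves, after filterByExpr and TMM, and Benjamini-Hochberg adjustment ran over the genes kept. Likeness used log2(CPM + 0.5). SEs are the log2 fold change over the square root of F. The code was tested on simulated counts.

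The members and lists were chosen with earlier results of these data known. The text names all members, per list and comparison the DEGs or else the gene with the smallest p, and the 2 genes most like each member, of which 1 is not reported here; *HP*, the ratios to marker counts, the count of acute phase genes by cow and that list with cows left out were chosen after their values were seen. *TLR1* and *CSF3R*, on the lists, are not analysed here. RefSeq (ARS-UCD2.0, 10 of 10 symbols matched) served only to name overlapping genes, so positions are not given. Alternatives were DESeq2 1.42.0, RLE in place of TMM, library sizes without the mitochondrial genes, no filter, at least 10 counts in every library, all 9 libraries in 1 fit, a replicate block and each cow left out in turn. A member had at least 70 counts in every library, and intervals rest on 3 cows a group.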

Additional observations from a re-analysis of the deposited data

How the results depend on the processing

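The 10 genes held 0 DEGs by edgeR in each comparison and in the test of the 3 groups under each alternative, except that DESeq2 called 1 member, *CD14*, between PF and TN cows (log2 fold change 1.23). In the wider lists the number of DEGs for HS and TN was 4 with DESeq2, 3 without the filter, 2 with the replicate block, 0 with all 9 libraries in 1 fit and 0 to 1 with 1 cow left out. For HS and PF it was 1 with DESeq2, 4 without the filter and 1 with the replicate block, and for PF and TN it was 2 with DESeq2 and 3 without the filter. Over all genes DESeq2 called 270, 122 and 91 DEGs for HS and TN, HS and PF, and PF and TN, where edgeR called 13, 4 and 0. Members at an unadjusted p under 0.05 numbered 0 to 2 for HS and TN, 0 to 3 for HS and PF and 1 to 2 for PF and TN over all alternatives. The cause of these shifts was not tested.

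Estimates near 0 changed sign. For *TLR2* in HS against TN cows the log2 fold change was 0.015 with DESeq2, 0.0073 with RLE size factors, 0.0016 without the filter and 0.0061 with the replicate block, and with 1 cow left out it ran from -0.28 to 0.36. For *MAPK14* in PF against TN cows it was 0.00033 with DESeq2 and 0.020 with the replicate block, and -0.17 to 0.25 with 1 cow left out. *IL1B* in HS against PF cows was -0.088 relative to the summed macrophage markers, a scale added after the values were seen.

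Leaving out single cows, the estimate for HS against TN ran from -0.71 to 0.22 for *TLR4* and from -0.027 to 0.38 for *IL1B*. In HS against PF cows it ran from -0.16 to 0.24 for *NFKB1*, -0.26 to 0.031 for *NFKBIA* and -0.21 to 1.41 for *SOCS3*. In PF against TN cows it ran from -0.24 to 0.021 for *MYD88*, -0.27 to 0.075 for *NFKBIA*, -0.13 to 0.46 for *STAT3* and -0.67 to 0.85 for *SOCS3*. The labels give replicate numbers but name no pairs of cows. Same-numbered cows had correlations of their deviations from -0.218 to 0.241, which with 3 cows a group cannot exclude a pairing. The replicate block moved no member across the threshold, while DEGs over all genes for HS and TN went from 13 to 33. With 3 cows a group, a missed threshold does not show that levels were alike.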
